A study of Mus musculus with 9 samples.

Results

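The 3 Runx genes, their shared partner subunit Cbfb and the 3 ETO family genes Cbfa2t2, Cbfa2t3 and Runx1t1 were followed through 9 RNA-seq libraries of mouse haematopoietic stem and progenitor cells. The 7 genes were found by symbol among 24060 named rows of the count table, and all 7 were among the 13355 genes that passed the low-count filter and were tested. The libraries came from C57BL/6 mice labelled 4 months of age, and from cells labelled LSK, that is, lineage-low cells carrying Sca1 and Kit. There were 3 control libraries from C57BL/6 marrow, 2 NHD13 libraries and 4 libraries labelled with NHD13 and Musashi2 overexpression, called NHD13/MSI2 after the study. NHD13 is a NUP98-HOXD13 fusion transgene under the Vav promoter, which is active across blood cells and models myelodysplastic syndrome, and the second strain adds MSI2 under a doxycycline-inducible promoter (KH2-Col1A1-tet-on-MSI2/ROSA26-rtTA). All 3 groups shared transplantation of the marrow, which per the study's methods went with helper cells into lethally irradiated congenic mice. MSI2 was induced after engraftment. The study's figure legend places these libraries 4 months after transplantation and 3 months after MSI2 induction, so the label of 4 months may give that time and not an age. That legend marks doxycycline (Dox) for the NHD13/MSI2 group alone. The study's text places the profiling after 3 months of doxycycline and before signs of disease, without naming groups. The sources used here therefore do not settle whether the control and NHD13 recipients received it. The labels do not say whether the libraries of a group had separate marrow donors, so p-values measure the spread between these libraries. Each library held 19242153 to 23013493 counts, and 3 counts corresponded to 0.130 to 0.156 CPM, that is, read counts scaled to the size of the library.

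RUNX proteins are transcription factors that bind DNA through a shared Runt domain. Each pairs with CBFβ, the product of Cbfb, which does not touch DNA itself but strengthens the binding. RUNX1 is required for definitive blood formation, is prominent in megakaryocyte and lymphoid differentiation, and is mutated in myelodysplastic syndrome and leukaemia. RUNX2 is best known as the master regulator of bone formation, and RUNX3 for its part in T and NK cells. The ETO proteins are co-repressors that carry histone deacetylases to DNA-bound factors. Runx1t1 encodes ETO itself, the partner of RUNX1 in the leukaemic RUNX1-ETO fusion, whereas Cbfa2t2 (MTGR1) and Cbfa2t3 (ETO2) encode its relatives.

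The Runx genes share a sequence as well as a domain. The motif searched here was ACCACA, a form of the RUNX consensus, and other forms were not searched. Among 32851 RefSeq promoter windows of 300 bases (250 before and 50 after the start, GRCm38.p6), 7 held this motif as a twin on one strand, ACCACA, any 2 bases, then ACCACA. These were 0.0213% of the windows, and 3 of the 7 belonged to Runx1, Runx2 and Runx3. The other 4 belonged to Gm15462, Gm16225, Gm12236 and Olfr24, of which only Olfr24 was in the count table, with 0 counts. In Runx1 and Runx3, for each of which the table held 2 starts, the twin lay at the distal start, the one farther from the end of the gene. The windows are shown because all 3 carry one run of 18 bases, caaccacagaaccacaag, and the capitals mark the 2 copies of the motif.
Runx1, chr16:92826025-92826054, minus strand: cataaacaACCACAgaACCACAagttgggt
Runx2, chr17:44814583-44814612, minus strand: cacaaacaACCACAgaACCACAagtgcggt
Runx3, chr4:135120503-135120532, plus strand: gtccctcaACCACAgaACCACAaggccagg
The twin began at positions 28, 23 and −134 relative to the start of Runx1, Runx2 and Runx3, respectively. The single motif, ACCACA or its complement TGTGGT, was present in 16.8% of all windows and in 3 of the 9 windows found for 6 of the 7 genes. These 3 were the same Runx windows, and none of the 4 windows of Cbfb, Cbfa2t2 and Cbfa2t3 held it. A match describes letters and not a bound site.

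Before the genes are described, several features of the libraries need stating. The Msi2 row did not follow the MSI2 label. Its level was 223 to 316 CPM in the control libraries, 111 and 139 CPM in NHD13, and 88.0, 77.1, 82.8 and 241 CPM in the 4 libraries labelled NHD13/MSI2, and whether reads of the transgene fall on this row is not given in the sources used here. Hoxd13 was at 0 counts in all 3 control libraries and at 0.648 to 1.13 CPM in the 6 libraries labelled NHD13 or NHD13/MSI2. NHD13/MSI2 replicate 4 stood apart, with 106 of 10972 genes more than 4 times as high as in any other library. NHD13 replicate 1 had 57 such genes, NHD13 replicate 2 had 12 and the other 6 libraries had 0 to 3. In 2 of the 3 control libraries Xist passed 1000 counts, and in the other 7 libraries the Y-linked Eif2s3y did, so the sex of the marrow partly follows the groups. With only the 7 libraries that have Y-linked counts, 1 control remained and none of the 7 genes passed the threshold in any comparison. The LSK genes were expressed in every library, at levels that differed between the groups. Kit was 1775 to 2254 CPM in control, 1121 and 1932 CPM in NHD13 and 908 to 1402 CPM in NHD13/MSI2. In the same order Flt3 was 581 to 674, 133 and 445, and 104 to 206 CPM. Ly6a, the gene of Sca1, was 79.3 to 89.8, 48.3 and 69.0, and 98.6 to 375 CPM, highest in NHD13/MSI2. The level of the stem cell gene Hlf differed widely between the groups and lay between 284 and 477 CPM in control, 10.0 and 26.1 CPM in NHD13 and 0.0499 to 0.779 CPM in the libraries labelled NHD13/MSI2.

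Runx1 rose in NHD13/MSI2 over control, and both NHD13 libraries also lay above every control library. This gene lies on the minus strand of chromosome 16, 92601466 to 92826149 (GRCm38, GENCODE M21). Its level was 73.3, 76.7 and 81.5 CPM in control replicates 1 to 3, 143 and 164 CPM in NHD13, and 190, 204, 174 and 127 CPM in the libraries labelled NHD13/MSI2. Each transgenic library exceeded each control library, and the NHD13 values lay inside the range of the NHD13/MSI2 values. The NHD13/MSI2 mean of 174 ± 33.6 CPM (SD, n = 4) was 2.25-fold the control mean of 77.2 ± 4.15 CPM (SD, n = 3). The log2 fold change was 1.17 (SE 0.18) and the adjusted p from edgeR's quasi-likelihood test, corrected over all genes tested, was 0.00169. The NHD13 mean, 154 ± 14.4 CPM (SD, n = 2), was 1.99-fold the control mean, a log2 difference of 0.99 (SE 0.20) with adjusted p = 0.0339 in the same edgeR test, which missed the threshold of 0.01. DESeq2 gave 0.00061 for that comparison, and edgeR without NHD13/MSI2 replicate 4 gave 0.00207. Between NHD13/MSI2 and NHD13 the log2 difference was 0.18 (95% interval −0.26 to 0.62, adjusted p = 0.659 by edgeR). The call over control was lost when control replicate 1, 2 or 3 was left out, with edgeR adjusted p of 0.0119, 0.0106 and 0.01002, and strengthened to 8.67e-05 without NHD13/MSI2 replicate 4. Among libraries with Y-linked counts alone, which leaves 1 control assumed to vary like the other groups, the log2 change over control was 1.22 in NHD13/MSI2 and 1.01 in NHD13 (edgeR adjusted p = 0.0933 and 0.572).

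Runx2 changed the other way in NHD13 and was intermediate in the libraries labelled NHD13/MSI2. The gene lies on the minus strand of chromosome 17, 44495987 to 44814797. Its level was 102, 122 and 103 CPM in control, 42.9 and 25.3 CPM in NHD13, and 77.6, 73.3, 81.1 and 80.4 CPM in the libraries labelled NHD13/MSI2. No 2 groups overlapped. The NHD13 mean of 34.1 ± 12.5 CPM (SD, n = 2) was 3.19-fold below the control mean of 109 ± 11.4 CPM (SD, n = 3), with a log2 fold change of −1.67 (SE 0.23) and adjusted p = 0.00513 by edgeR. The NHD13/MSI2 mean, 78.1 ± 3.55 CPM (SD, n = 4), was 2.29-fold the NHD13 mean, with a log2 fold change of 1.20 (SE 0.21). That comparison only just passed, with edgeR adjusted p = 0.00972. Against control the NHD13/MSI2 libraries had a log2 difference of −0.48 (95% interval −0.88 to −0.08, adjusted p = 0.0905 by edgeR), and this did not pass. The NHD13 values of both calls come from 2 libraries, and without NHD13 replicate 2 the log2 changes were −1.35 and 0.91 and both calls were lost, with edgeR adjusted p of 0.0160 and 0.0295. Leaving out any control library or any of NHD13/MSI2 replicates 1 to 3 also ended both calls by edgeR, with adjusted p of 0.0109 to 0.02085 for the fall in NHD13 and 0.0196 to 0.0251 for the higher level labelled NHD13/MSI2, at log2 changes of −1.58 to −1.72 and 1.18 to 1.25. Among libraries with Y-linked counts alone the changes were −1.84 and 1.23 (edgeR adjusted p = 0.0987 and 0.0468).

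Runx2 is known chiefly from bone, so marker genes of osteoblasts and fibroblasts were examined beside it. Bglap and Lum had 3 counts or fewer in every library, and the summed level of all 8 genes of that list was 1.23 to 7.04 CPM in control, 1.68 to 7.82 CPM in NHD13 and 1.17 to 4.89 CPM in the libraries labelled NHD13/MSI2. Of 11 Runx2 target genes of bone, 6 passed the low-count filter. Spp1, which encodes osteopontin, was the single one called, in NHD13/MSI2 over control (16.7%, against 11.0% of all genes). It was at 7.66 CPM in control, 1.41 CPM in NHD13 and 0.194 CPM in the libraries labelled NHD13/MSI2. Its log2 change over control was −5.21 in NHD13/MSI2 (adjusted p = 0.00413 by edgeR). In NHD13 it was −2.44 and not called (adjusted p = 0.344 by edgeR). Runx2 itself was called lower in NHD13 over control and did not pass in NHD13/MSI2 over control.

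Runx3 was not called in any comparison. It lies on the plus strand of chromosome 4, 135120652 to 135177990. Its level was 41.2, 63.5 and 42.1 CPM in control, 47.0 and 57.3 CPM in NHD13, and 56.3, 58.6, 49.8 and 101 CPM in the libraries labelled NHD13/MSI2. All groups overlapped, and the value that stands above the rest is that of NHD13/MSI2 replicate 4. The log2 differences were 0.09 for NHD13 over control (95% interval −0.63 to 0.81), 0.35 for NHD13/MSI2 over NHD13 (−0.34 to 1.04) and 0.44 for NHD13/MSI2 over control (−0.17 to 1.05), so a level higher by 1.04 lay inside the interval for both NHD13/MSI2 comparisons. Defining genes of T cells were low, with Cd3d, Cd3e and Cd3g at 0 to 0.698 CPM in all 9 libraries and Cd8a at up to 1.43 CPM, in NHD13. The summed T cell list of 7 genes was 38.8 to 50.4 CPM in control, 204 and 339 CPM in NHD13 and 66.4 to 119 CPM in NHD13/MSI2. In NHD13 Lck gave 192 and 193 CPM, and Tcf7 1.33 and 139 CPM. Runx3 in NHD13 lay inside its control range, and any part of T cells in its level was not tested.

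Cbfb, the partner of all 3 factors, was the steadiest of the 7 genes. It lies on the plus strand of chromosome 8, 105170674 to 105217989. Its level was 60.5, 71.0 and 79.9 CPM in control, 68.9 and 66.2 CPM in NHD13, and 71.9, 73.1, 62.0 and 72.8 CPM in the libraries labelled NHD13/MSI2. The groups overlapped throughout, and the 3 log2 differences were −0.06 (95% interval −0.43 to 0.30) for NHD13 over control, 0.05 (−0.30 to 0.40) for NHD13/MSI2 over NHD13 and −0.01 (−0.32 to 0.30) for NHD13/MSI2 over control. No interval reached beyond −0.43 or 0.40.

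**Figure D1:**
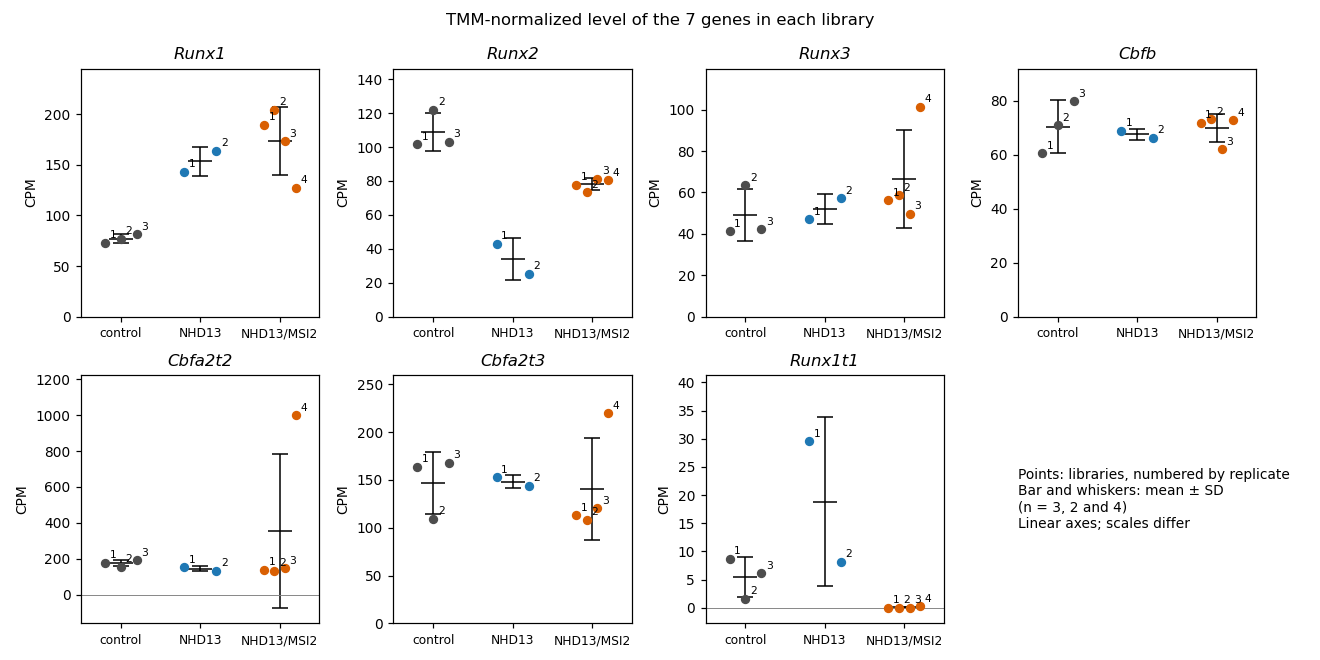
CPM (TMM-normalized, linear axes with separate scales) of the 7 genes in each of the 9 libraries, with points numbered by replicate and bars for the mean ± SD (n = 3, 2 and 4). Runx1 is higher in all 6 transgenic libraries than in the 3 control libraries, Runx2 is lowest in NHD13, Runx1t1 is at or near 0 in the libraries labelled NHD13/MSI2, and Cbfa2t2 in replicate 4 of that group is far above the rest.

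Runx1t1 showed the largest fold changes of the 7 genes. The gene lies on the plus strand of chromosome 4, 13743436 to 13893649. Its counts were 212, 34 and 154 in control (8.67, 1.61 and 6.16 CPM), 642 and 166 in NHD13 (29.5 and 8.20 CPM), and 0, 0, 0 and 4 in the libraries labelled NHD13/MSI2. The last group overlapped neither of the others, whereas NHD13 replicate 2 lay below control replicate 1. Pooled over the 4 libraries labelled NHD13/MSI2, 4 counts gave 0.0520 CPM. The NHD13 mean of 18.9 ± 15.1 CPM (SD, n = 2) was 363-fold that value (95% exact Poisson interval 142 to 1331, counting error only). The control mean of 5.48 ± 3.58 CPM (SD, n = 3) was 105-fold that value (41.1 to 387). Against replicates 1 to 3 alone, whose pooled 0 counts allow up to 3, NHD13 was at least 387-fold and control at least 112-fold higher. The NHD13 folds rest on replicate 1, and replicate 2 alone gave 158-fold over the pooled value and at least 168-fold over replicates 1 to 3. In the edgeR test the adjusted p was 0.00351 for NHD13/MSI2 against NHD13 and 0.00301 against control, while NHD13 over control had a log2 difference of 1.78 (95% interval −0.24 to 3.80, adjusted p = 0.460). The fitted log2 changes of −8.30 (SE 1.15) and −6.52 (SE 1.10) depend on the prior count and are not bounds. They moved to −11.67 and −9.90 without NHD13/MSI2 replicate 4, the sole library of that group with a count, and the NHD13 over control difference fell to 0.58 without NHD13 replicate 1.

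The call against NHD13 was lost without NHD13 replicate 1 (edgeR adjusted p = 0.0205) or without NHD13/MSI2 replicate 1, 2 or 3 (0.0114, 0.0123 and 0.0111). The Runx1t1 call against control was lost without NHD13/MSI2 replicate 1, 2 or 3 (0.0101 to 0.0104 by edgeR) or without control replicate 1 or 3 (0.0132 and 0.0115). Among libraries with Y-linked counts alone Runx1t1 had fitted log2 changes of −8.24 against NHD13 and −4.69 against the 1 control left (edgeR adjusted p = 0.0222 and 0.115). The stem cell genes Slamf1, Fgd5, Tek, Meis1, Procr and Hlf were, like Runx1t1, lower in NHD13/MSI2 than in every other library. Mecom of the same list was higher there than in every other library. Slamf1 was 12.6 to 30.2 CPM in control, 13.4 and 51.8 CPM in NHD13 and 0.0499 to 1.86 CPM in the libraries labelled NHD13/MSI2. In the same order Fgd5 was 7.26 to 11.8, 9.09 to 12.6 and 0 to 0.130 CPM, and Tek 18.2 to 71.1, 21.7 to 54.1 and 0 to 1.49 CPM. Meis1 (705 to 1015, 158 to 523 and 4.16 to 11.7 CPM) was already below control in NHD13, where Runx1t1 overlapped control. The same held for Procr (27.4 to 37.7, 21.3 to 22.1 and 6.26 to 12.1 CPM) and for Hlf. The summed stem cell list of 7 genes was not lower in the libraries labelled NHD13/MSI2 than in control. It was 1133 to 1641 CPM in control, 369 and 1086 CPM in NHD13 and 1200.3 to 1722 CPM in NHD13/MSI2, where Mecom alone gave 1187 to 1700 CPM. Fewer cells of a type and less RNA per cell cannot be told apart in bulk libraries, and the part of stem cell number in the Runx1t1 values was not tested.

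Cbfa2t2 had 1 discordant library. This gene lies on the plus strand of chromosome 2, 154436481 to 154539356. Its level was 176, 156 and 192 CPM in control, 153 and 134 CPM in NHD13, and 140, 134, 147 and 999 CPM in the libraries labelled NHD13/MSI2. Leaving aside replicate 4, at 15397 counts, all libraries lay between 134 and 192 CPM. No comparison passed, with a log2 difference of 1.31 for NHD13/MSI2 over NHD13 (95% interval −0.55 to 3.17, adjusted p = 0.414 by edgeR) and 1.02 over control (−0.56 to 2.60, adjusted p = 0.357). Without replicate 4 these turned to −0.02 and −0.31, again with no call (edgeR adjusted p = 0.956 and 0.0585). Both NHD13 libraries lay below the lowest control library, with a log2 difference of −0.28. The spread is estimated over all groups, so its interval of −2.14 to 1.57 includes the scatter of replicate 4.

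Cbfa2t3, whose product acts in complexes with GATA1 and TAL1, lies on the minus strand of chromosome 8, 122625141 to 122699109. Its level was 164, 109 and 168 CPM in control, 153 and 144 CPM in NHD13, and 113, 108, 120 and 220 CPM in the libraries labelled NHD13/MSI2. The same library, replicate 4, was the highest, and all groups overlapped. The 3 log2 differences lay between −0.08 and 0.01, with adjusted p of 0.897 to 0.997 by edgeR. Counting by strand is not stated in the sources used here, and exons of Cbfa2t3, Runx1 and Runx2 overlap the antisense genes Gm10612, Gm26626 and Runx2os1, so reads of these pairs cannot be told apart.

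Counted by comparison, 2 of the 7 genes passed in NHD13/MSI2 over NHD13 (Runx2 higher, Runx1t1 lower), where 3.17% of all genes tested did (0.584% higher, 2.58% lower). In NHD13/MSI2 over control 2 of 7 passed (Runx1 higher, Runx1t1 lower), where 11.0% of all genes did (4.49% higher, 6.55% lower), and in NHD13 over control 1 of 7 passed (Runx2 lower), where 1.03% did (0.824% higher, 0.210% lower). In the joint test of the 3 groups Runx1, Runx2 and Runx1t1 passed, 3 of 7 against 8.90% of all genes, with edgeR adjusted p of 0.00448, 0.00307 and 0.00333. Groups did not overlap for 2, 3 and 3 of the 7 genes, against 29.9%, 35.7% and 37.4% of all genes tested, which is close to that background. The median log2 difference of the 7 genes was 0.18 in NHD13/MSI2 over NHD13, against −0.03 over all genes, and −0.01 in NHD13/MSI2 over control, the same to 2 decimals as that of all genes. The 3 comparisons share libraries in pairs, so their counts are not independent. Scaling by library totals alone shifted the median of all genes to −0.23 for NHD13/MSI2 over NHD13 and −0.22 over control, and under it Runx1 over control (log2 change 0.98, adjusted p = 0.0126 by edgeR) and Runx2 over NHD13 (0.99, 0.0246) kept their direction and missed the threshold.

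**Figure D2:**
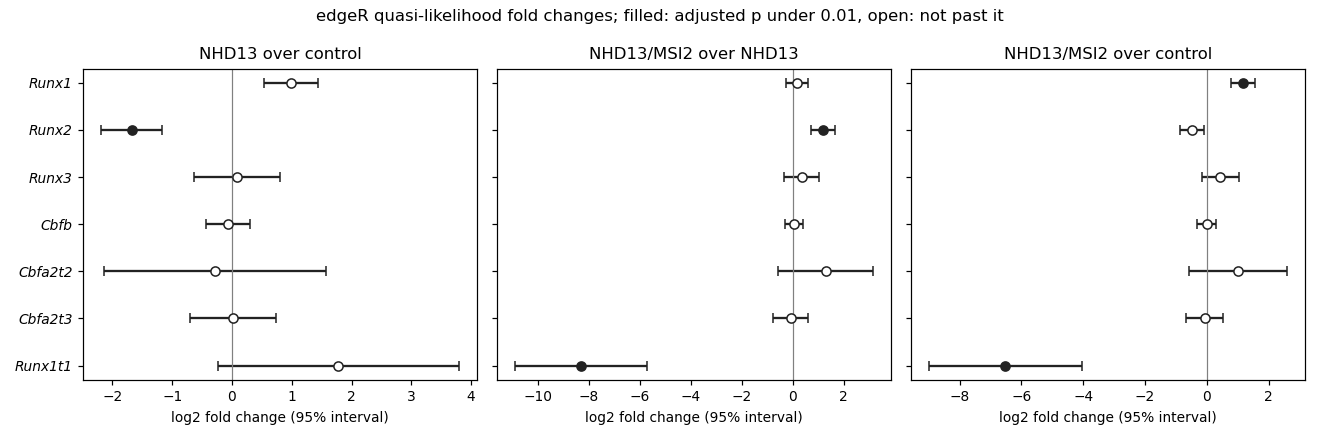
Log2 fold change of the 7 genes with its 95% interval in the 3 comparisons, from 1 edgeR fit of all 9 libraries, with filled points where the adjusted p was under 0.01. Runx2 is filled on opposite sides of 0 in NHD13 over control (−1.67) and NHD13/MSI2 over NHD13 (1.20), and Runx1t1 is filled at −8.30 and −6.52.

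Dividing by exon length allows the Runx genes to be set against each other. On the scale of CPM per kb of the union of exons, Runx2 was the largest of the 3 in control, with 43.3 ± 1.27% of the summed Runx level (SD, n = 3), followed by Runx3 with 34.0 ± 4.04% and Runx1 with 22.7 ± 3.01%. In NHD13 the order was Runx1 with 47.2 ± 2.28% (SD, n = 2), Runx3 with 38.4 ± 3.60% and Runx2 with 14.4 ± 5.87%. In the libraries labelled NHD13/MSI2 it was Runx1 with 39.9 ± 9.01% (SD, n = 4), Runx3 with 35.9 ± 9.96% and Runx2 with 24.3 ± 2.25%. The first 2 of these last shares differed by less than their spread, with Runx1 above Runx3 in replicates 1 to 3 and below it in replicate 4. Runx1 was the smallest of the family in each control library, at up to 25.2%, and made up at least 26.5% in each transgenic one. By the longest transcript in place of the exon union, Runx1 made up 31.2% in control and exceeded Runx3 (29.3%), so the order of these 2 in control depends on the length used, whereas Runx2 stayed first in control at 39.6% and last in NHD13 at 11.9%. In the libraries labelled NHD13/MSI2 the longest transcript gave Runx1 50.4 ± 9.70% and Runx3 29.0 ± 9.60% (SD, n = 4), a wider gap, again with the order turned in replicate 4.

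The summed Runx level was 28.5 ± 3.82 CPM per kb in control (SD, n = 3), 27.0 ± 1.24 in NHD13 (n = 2) and 36.6 ± 2.65 in the libraries labelled NHD13/MSI2 (n = 4). In the last group the 4 sums, 33.6 to 39.9, were all above the highest other sum of 32.9. With library totals alone in place of TMM the groups overlapped, at 31.4 to 36.0 in NHD13/MSI2 and 34.9 in control replicate 2. The mean ratio of this sum to Cbfb per kb was 1.42 in control, 1.40 in NHD13 and 1.82 in the libraries labelled NHD13/MSI2, where it ran from 1.73 to 1.91 and exceeded the 1.61 of the highest other library. In the ETO family, Cbfa2t2 and Cbfa2t3 made up 53.0 ± 4.20% and 45.3 ± 3.21% of the sum in control (SD, n = 3) by the exon union, and 59.2% and 39.0% by the longest transcript. Runx1t1 gave 1.70 ± 1.01% in control, 6.20 ± 4.44% in NHD13 (SD, n = 2) and at most 0.0230% in a library labelled NHD13/MSI2. In NHD13/MSI2 replicate 4 Cbfa2t2 made up 81.5% of the family.

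**Figure D3:**
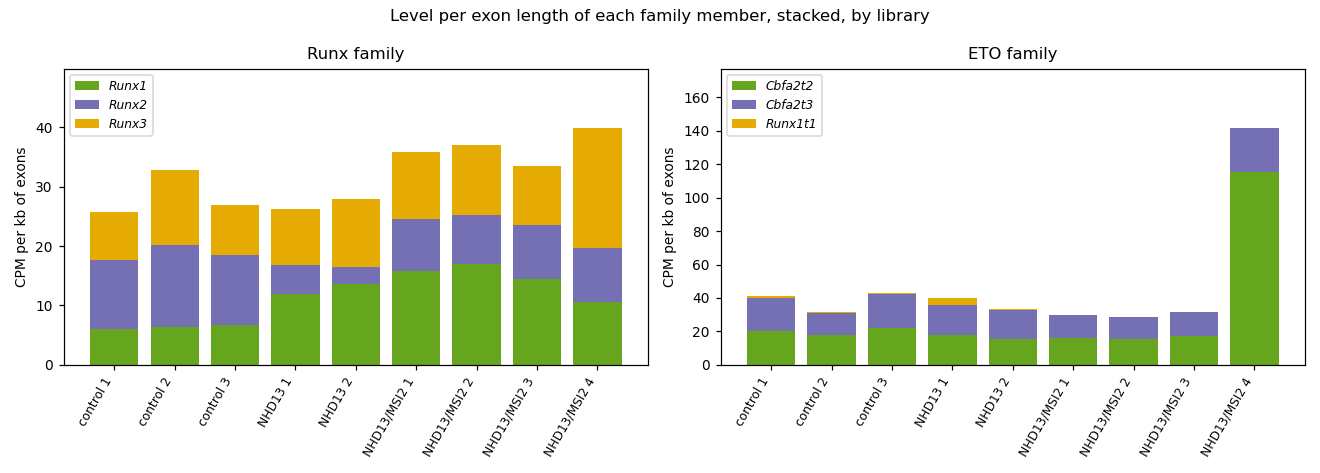
Stacked CPM per kb of exons of the Runx family (left) and the ETO family (right) in each library, on linear axes starting at 0. The Runx2 segment shrinks and the Runx1 segment grows from control to NHD13, the TMM-scaled Runx sum is highest in the 4 libraries labelled NHD13/MSI2 (33.6 to 39.9, a separation lost with library totals alone), and the ETO sum of replicate 4 reaches 142 through Cbfa2t2.

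Transcription factors and co-factors that act beside RUNX1 in blood cells changed in both directions. Of 21 such genes tested, 1 was lower in NHD13/MSI2 over NHD13 (4.76%, against 3.17% of all genes), 2 were higher and 2 lower in NHD13/MSI2 over control (19.0%, against 11.0%), and 0 passed in NHD13 over control, where 5 had an unadjusted p under 0.05. Tal1, a helix-loop-helix factor of early blood and erythroid cells, was 19.8 CPM in control, 10.7 CPM in NHD13 and 1.24 CPM in the libraries labelled NHD13/MSI2, with log2 changes of −3.09 over NHD13 and −3.98 over control (edgeR adjusted p = 0.00367 and 0.000277). Gata1, the erythroid and megakaryocyte factor, was lower over control (log2 change −3.48, adjusted p = 0.00594 by edgeR). Mecom, a stem cell and leukaemia gene, rose over control from 115 to 1366 CPM (3.57, adjusted p = 0.000421 by edgeR). Cebpa, the factor of granulocyte commitment, rose over control from 3.59 to 16.2 CPM (2.17, adjusted p = 0.00136 by edgeR). The median log2 change of the list was 0.31 in NHD13 over control, and −0.08 and 0.20 for the libraries labelled NHD13/MSI2 over NHD13 and over control, against 0.02, −0.03 and −0.01 over all genes. Spi1, encoding PU.1, and Gfi1 did not pass in any comparison, with Gfi1 at 4.49, 5.70 and 3.12 CPM in control, NHD13 and NHD13/MSI2. Spi1 was 17.9 to 22.1 CPM in control, 31.2 and 42.8 CPM in NHD13, and 78.3, 78.7, 62.8 and 13.1 CPM in the libraries labelled NHD13/MSI2. Replicates 1 to 3 of that group lay above every other library, and replicate 4 lay below every one.

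Among the co-repressors, co-activators and modifiers of RUNX and ETO proteins, 28 genes were tested. Tle3 alone passed, in NHD13/MSI2 over control (3.57%, against 11.0% of all genes). It rose there from 18.6 to 41.2 CPM (log2 change 1.15, adjusted p = 0.00283 by edgeR). Tle3 encodes a Groucho-type co-repressor. Its relative Tle1, named after its values were seen, was at 5.63 ± 1.62 CPM in control and 0.395 ± 0.310 CPM in NHD13/MSI2 (SD, n = 3 and 4), without overlap, and just missed the threshold (log2 difference −3.84, adjusted p = 0.01016 by edgeR). The count of co-regulators called lower there, 0, became 1 in several other fits and 3 without NHD13/MSI2 replicate 4. In NHD13/MSI2 over NHD13 and in NHD13 over control 0 of the 28 passed by edgeR, where 3.17% and 1.03% of all genes did. In these 2 comparisons 1 and 3 genes had an unadjusted p under 0.05, and the list medians were −0.02 and 0.02. The list median was −0.10 in NHD13/MSI2 over control.

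Genes known as RUNX targets in blood cells changed in both directions. Spi1, Cebpa and Gfi1 are in this list and in the partner list, so the call of Cebpa over control is counted in both. Of 34 genes 31 were tested, and 2 were higher and 1 lower in NHD13/MSI2 over NHD13 (9.68%, against 3.17% of all genes), 7 higher and 2 lower in NHD13/MSI2 over control (29.0%, against 11.0%), and 1 higher and 1 lower in NHD13 over control (6.45%, against 1.03%). Csf1r, the receptor of macrophage colony-stimulating factor, was 11.2 CPM in control, 108 CPM in NHD13 and 356 CPM in the libraries labelled NHD13/MSI2. It passed in all 3 comparisons, with log2 changes of 3.27 in NHD13 over control, 1.71 in NHD13/MSI2 over NHD13 and 4.98 in NHD13/MSI2 over control (edgeR adjusted p = 0.000711, 0.00927 and 2.07e-05). Itgam, an integrin of myeloid cells, rose in the libraries labelled NHD13/MSI2 to 415 CPM, from 99.0 CPM in NHD13 and 45.3 CPM in control. Cd79a, a B cell receptor component, rose over control from 1.25 to 184 CPM (log2 change 7.17, adjusted p = 0.00536 by edgeR). The summed level of 5 B cell markers, Cd79a among them, was 45.7 to 54.3 CPM in control, 81.4 and 126 CPM in NHD13 and 260.2 to 441 CPM in NHD13/MSI2, with Cd79b at 133 to 174 CPM in the last, while Ebf1 stayed at or below 3.43 CPM in all 9 libraries. The part of B cell markers in the Cd79a result was not tested.

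Itga2b, an integrin that marks megakaryocytes, was at 82.6 ± 31.5 CPM in control (SD, n = 3), and at 212 and 49.6 CPM in NHD13 replicates 1 and 2, the latter below the control mean. It fell to 10.3 ± 5.85 CPM in NHD13/MSI2 (SD, n = 4), with log2 changes of −3.66 over NHD13 and −3.00 over control (edgeR adjusted p = 0.00734 and 0.00542). Pf4 did not pass in any comparison, with 153 ± 194 CPM in NHD13 (SD, n = 2). Cd34 was lower than in control in both transgenic groups, with log2 changes of −1.80 in NHD13 and −1.07 in NHD13/MSI2. Mpo, the neutrophil peroxidase, rose over control from 1549 to 10791 CPM (2.80, adjusted p = 0.000254 by edgeR), and Elane and Cd4 did not pass in any comparison. The median log2 difference of the blood targets was 0.90 in NHD13 over control, and −0.41 and 0.44 for the libraries labelled NHD13/MSI2 over NHD13 and over control, against 0.02, −0.03 and −0.01 over all genes. The summed level of 7 granulocyte-monocyte progenitor markers was 1564 to 2292 CPM in control, 3406 and 4354 CPM in NHD13 and 8917 to 15306 CPM in the libraries labelled NHD13/MSI2, where Mpo alone gave 7845 to 13878 CPM. Besides Mpo, Csf1r of that list was above control in all 6 transgenic libraries, whereas Elane, Prtn3, Ctsg, Fcgr3 and Ms4a3 overlapped control in both groups. The summed level of 6 megakaryocyte markers was 81.4 to 225 CPM in control, 87.0 and 707 CPM in NHD13 and 16.4 to 46.5 CPM in NHD13/MSI2. Several of these markers are themselves in the target list, and the part of cell composition in the target values was not tested.

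**Figure D4:**
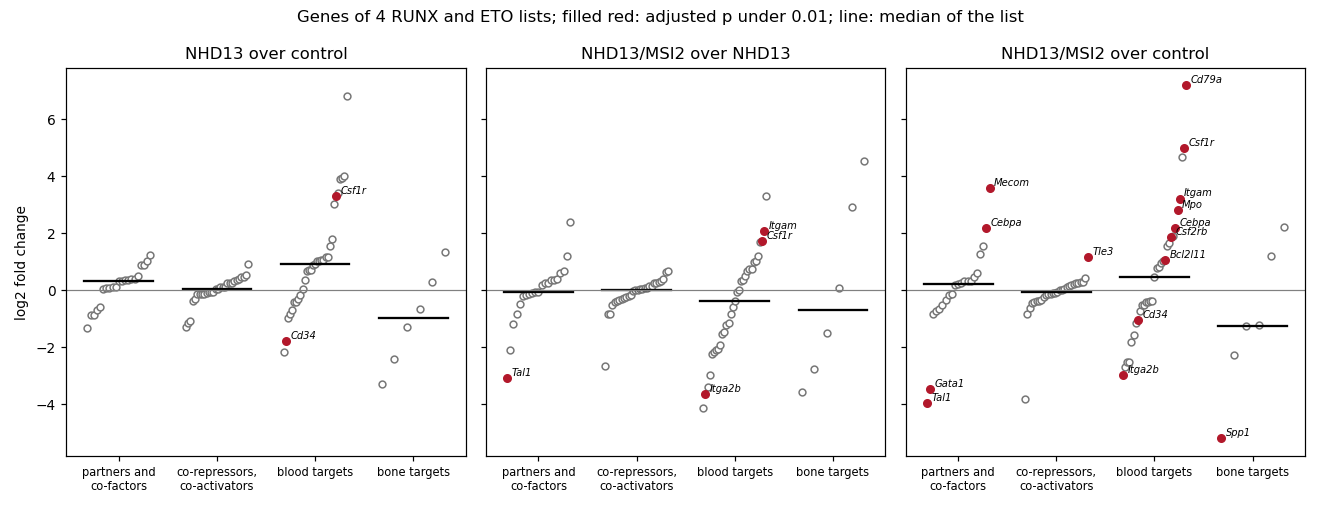
Log2 fold change of each tested gene of 4 RUNX and ETO gene lists in the 3 comparisons, with red filled points for an adjusted p under 0.01 and a line at the median of each list. In NHD13/MSI2 over control 4 of 21 partners (19.0%) and 1 of 28 co-regulators (3.57%) are filled, against 11.0% of all genes. In the blood targets the calls lie on both sides of 0, from Itga2b at −3.00 to Cd79a at 7.17 in NHD13/MSI2 over control.

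Genes with the most similar course over the 9 libraries were sought for each of the 7 genes among 10971 genes with a mean of at least 50 counts, by Pearson's r of log2 CPM. Runx1 ran closest to Xbp1, Itfg1 and Rara (r = 0.986, 0.985 and 0.985), although Itfg1 varied over a narrower log2 range (0.54) than Runx1 (1.48). Runx2 was most like Pcp4l1, Arap2 and Coro2a (0.973, 0.957 and 0.951), and Runx1t1 was most like Rps6ka6, Mettl8 and Gucy1b3 (0.988, 0.982 and 0.970). Runx3 ran closest to Nsmce2, Mrpl18 and Midn (0.977, 0.970 and 0.967). Cbfa2t2 was most like Whsc1l1, Ado and Slc39a1 (0.996, 0.995 and 0.994), a likeness carried by replicate 4 of NHD13/MSI2. Cbfa2t3 was most like AW549877, Ppp2r1b and Cldn25 (0.940, 0.932 and 0.932), and Cbfb, which varied over a log2 range of 0.40, like Yipf4, C1d and Smim8 (0.911, 0.876 and 0.826). With so many genes and 9 points that share group structure, values of this size are a description.

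**Figure D5:**
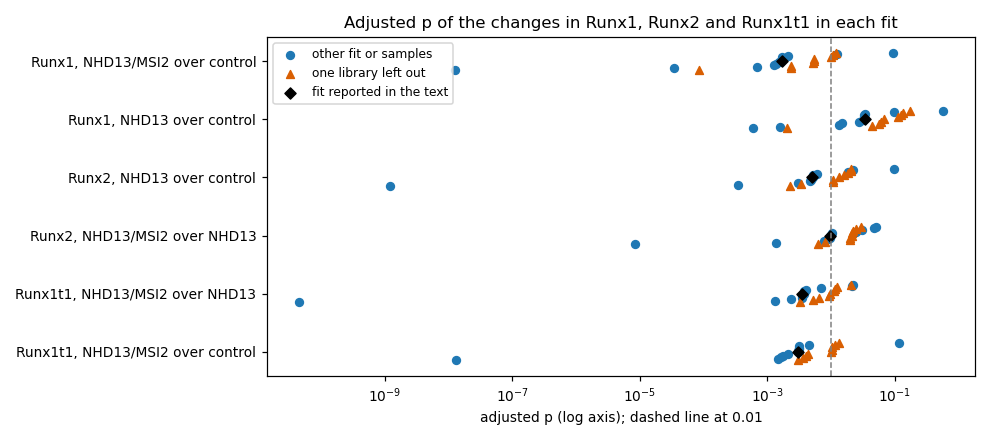
Adjusted p (log axis) of the changes in Runx1, Runx2 and Runx1t1 in the fit reported in the text (diamonds), in other fits or sample choices (circles) and with single libraries left out (triangles), with a dashed line at 0.01. Most points of the 6 changes lie within a factor of 10 of the line, on both sides of it, and DESeq2 gives the smallest adjusted p of each.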

How the data were processed

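RNA of sorted LSK cells was sequenced on Illumina machines. The authors deposited 1 table of raw read counts per gene for 9 libraries, and the submitters' processing notes name STAR, HTSeq, DESeq and the mm9 build, without versions. Symbols below the date-like March names stood 2 rows too high, so 11942 names (49.6%) were moved down 2 rows. At that shift 71 of 79 ribosomal protein genes had a mean of at least 1000 counts, against 59 unshifted, and 13 rows without a name (at most 0.0323% of a library) were left out. Groups followed the labels. edgeR 4.0.16 (R 4.3.3) quasi-likelihood tests were run on all 9 libraries together, with filterByExpr, TMM factors and Benjamini-Hochberg adjustment over 13355 genes at 0.01. They were also run on simulated counts in which no library stood apart, so that run does not show how they behave with a library like NHD13/MSI2 replicate 4. CPM are TMM-normalized. DESeq2 1.42.0, other scalings, filters and sample choices were alternatives. The genes and lists were chosen with earlier results of these data known. Named list genes were up to 4 called each way per comparison with a mean of at least 50 counts, plus Spi1, Csf1r, Mpo, Elane, Gfi1, Cebpa, Pf4, Itga2b and Cd4. Some items of the lists are not reported here and are left out of their counts and sums. Gene positions and lengths are from GENCODE M21 (GRCm38), another build than that of the counts. Replicates differed beyond sampling noise (chi-square per gene at least 19.7). Intervals from counts cover counting error only.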

Additional observations from a re-analysis of the deposited data

Results flagged for a closer look

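Within the 4 libraries labelled NHD13/MSI2, 5 of the 26 genes examined had 1 library far from the others, by a gap that exceeded Dixon's 95% critical value. Chance alone gives this in about 1 group in 20. Cbfa2t2 was at 999 CPM in replicate 4, against 134 to 147 CPM in the other 3. Cbfa2t3 was at 220 CPM in replicate 4, against 108 to 120 CPM. Msi2 was at 241 CPM in replicate 4, against 77.1 to 88.0 CPM. Runx1t1 was at 0.260 CPM in replicate 4, from 4 counts, against 0 in the others. With 0 in the other 3, any count in replicate 4 would be flagged, so the rate of 1 in 20 does not apply to Runx1t1. Cbfb was at 62.0 CPM in replicate 3, against 71.9 to 73.1 CPM. Of these 5, 4 fall on replicate 4, Runx1t1 among them. That library also has the lowest TMM factor (0.785, against 0.969 to 0.973 for its group).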

How the results depend on the processing

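Across 21 other fits and library choices, Runx1 in both comparisons with control, Runx2 in all 3 and Runx1t1 in all 3 kept their direction. How many of the 7 genes passed in NHD13/MSI2 over NHD13 (2) became 1 with library totals alone, the robust fit or the genes of chromosomes X and Y left out, and 0 with only the compared groups or only libraries with Y-linked counts. In NHD13/MSI2 over control (2) it became 1 with library totals alone and 0 with Y-linked libraries. In NHD13 over control (1) it became 2 with DESeq2, with an adjusted p under 0.05 or without both libraries that stand apart, and 0 with only the compared groups or the Y-linked libraries. Leaving out single libraries gave 0 to 2 in each comparison. Over all genes the calls in the same order were 423, 1474 and 138, and ran from 30 (only the compared groups) to 1292 (DESeq2), from 95 (Y-linked libraries) to 2745 (adjusted p under 0.05) and from 7 (Y-linked libraries) to 602 (DESeq2). Blood targets called higher and lower over control (7 and 2 in NHD13/MSI2) ran from 1 and 0 (Y-linked libraries) to 10 and 5 (both libraries that stand apart left out), and co-regulators called lower in NHD13/MSI2 over control (0) reached 3 in that fit and without NHD13/MSI2 replicate 4 alone. Blood targets called in NHD13/MSI2 over NHD13 (2 higher and 1 lower) were less steady. Their counts were the same or close in 7 and 9 of the 21 and moved in the others, up to 5 and 2. Same-numbered libraries did not all deviate together (r of −0.072 to 0.19), so the numbers were not taken as pairs. The replicate block gave 1, 2 and 0 of the 7 genes in the order above, and under it Cbfa2t2 was −0.084 over NHD13 and −0.31 over control. The cause of these changes was not tested.

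Uncalled differences changed sign as follows, on the log2 scale. Cbfa2t3 in NHD13 over control was −0.029 without both libraries that stand apart, −0.0072 with DESeq2, −0.0034 with library totals and −0.0068 with RLE factors, and 0.40 in NHD13/MSI2 over control with Y-linked libraries. Cbfb in NHD13/MSI2 over control was 0.0031 at a mean of at least 50 counts, 0.018 with Y-linked libraries and 0.018 with only the compared groups, and −0.15 over NHD13 with library totals. Runx1 over NHD13 was −0.00030 with library totals. Runx3 in NHD13 over control was −0.28 with Y-linked libraries, and −0.058 in NHD13/MSI2 over NHD13 without both libraries that stand apart, and Cbfa2t2 over control was −0.31 there. With single libraries left out, Cbfa2t2 ran from −0.31 to 1.30 over control and from −0.016 to 1.60 over NHD13 in NHD13/MSI2. Cbfa2t3 ran from −0.16 to 0.12 in NHD13 over control, −0.36 to 0.051 in NHD13/MSI2 over control and −0.36 to 0.047 over NHD13. Cbfb ran from −0.16 to 0.038 in NHD13 over control and −0.11 to 0.088 in NHD13/MSI2 over control, and Runx3 from −0.068 to 0.32 in NHD13 over control.

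The names as deposited, the fit without both libraries that stand apart (NHD13 replicate 1 and NHD13/MSI2 replicate 4), the Runx sum on library totals and the Runx1t1 folds of NHD13 replicate 2 were chosen after seeing the data. Names as deposited put the Runx1 row under Runx2 (0.99 and 1.17 over control) and the Runx1t1 row under Runx3 (−8.30 and −6.52), gave Runx1t1 −0.22 in NHD13 over control, and left 1, 2 and 0 genes called.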

Other observations

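Among the 7 libraries with Y-linked counts, Ddx3y was at 3.83 to 17.6 CPM in the 4 libraries labelled NHD13/MSI2, 172 and 250 CPM in NHD13 and 229 CPM in the control library. Uty did not differ in that way, at 102 to 130 CPM, 129 and 144 CPM and 111 CPM in the same order. These genes were examined as a check of the libraries and chosen for mention after their values were seen.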
